A study of Rattus norvegicus with 20 samples.

Results

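The comparison covers 11 of the 20 nucleus accumbens libraries of the study, namely those of rats that drank short-chain fatty acids, either alone (SCFA, n = 6) or together with antibiotics (Abx_SCFA, n = 5). The members were chosen by the treatment label alone, so that no measured value decided which libraries were compared. All rats were male wild-type Sprague-Dawley animals, given in the labels as 7–9 weeks old, housed 2 to a cage, with a history of cocaine self-administration and free access to food and their drink. The other libraries came from rats that drank water (H2O, n = 5) or antibiotics (Abx, n = 4). The question asked here is how accumbens RNA differed between rats with and without antibiotics when both received the fatty acids in their drink. The sources used here do not name the antibiotics, the fatty acids or their doses, and no cage mates are identified. Where nothing says that libraries came from separate cages, p-values measure only the spread between these libraries. The rat numbers in the library titles are all lower in SCFA than in Abx_SCFA, so that anything that followed the rat numbers cannot be told apart from the antibiotics.

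Acetate, propionate and butyrate are made by gut bacteria from dietary fibre, reach the blood and are taken up by monocarboxylate transporters. Butyrate is also known as an inhibitor of histone deacetylases, the enzymes that remove acetyl groups from histones. The nucleus accumbens is the ventral part of the striatum. Its projection neurons are medium spiny neurons, one class of which carries the D1 dopamine receptor with dynorphin and substance P, while the other carries the D2 receptor with enkephalin and the adenosine receptor encoded by Adora2a.

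Libraries held from 17946132 to 25601695 counts in SCFA and from 18375538 to 25731636 in Abx_SCFA. The labelled tissue carried its markers in every library: all 27 general medium spiny neuron markers entered the test, and their summed level ran from 9610 to 18941 CPM (counts scaled to library size) in SCFA and from 15747 to 17585 CPM in Abx_SCFA. Markers of cortical excitatory neurons, which are not part of the accumbens, were also present. Their summed level over 15 tested markers ran from 328 to 2426 CPM in SCFA and from 454 to 900 CPM in Abx_SCFA, and none of them was at 0 in any of the 11 libraries. SCFA replicates 2 and 5 stood apart, with the lowest medium spiny neuron list means (7.76 and 7.83 mean log2 CPM) and the highest cortical list means (5.33 and 6.15). In a principal component analysis of the 11 libraries, the first component held 40.3% of the variance, and these libraries lay at 31.2 and 45.4 on it, while SCFA replicates 1, 3 and 4 lay at -20.6, -14.0 and -21.8. SCFA replicate 6 lay between, at 15.4, and the Abx_SCFA libraries ran from -17.4 to 0.59. The spread followed: the SD of log2 CPM was larger in SCFA than in Abx_SCFA for 68.8% of genes, and for 54.4% of genes without SCFA replicates 2 and 5. For many results below, the values without both libraries are also given.

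**Figure D1:**
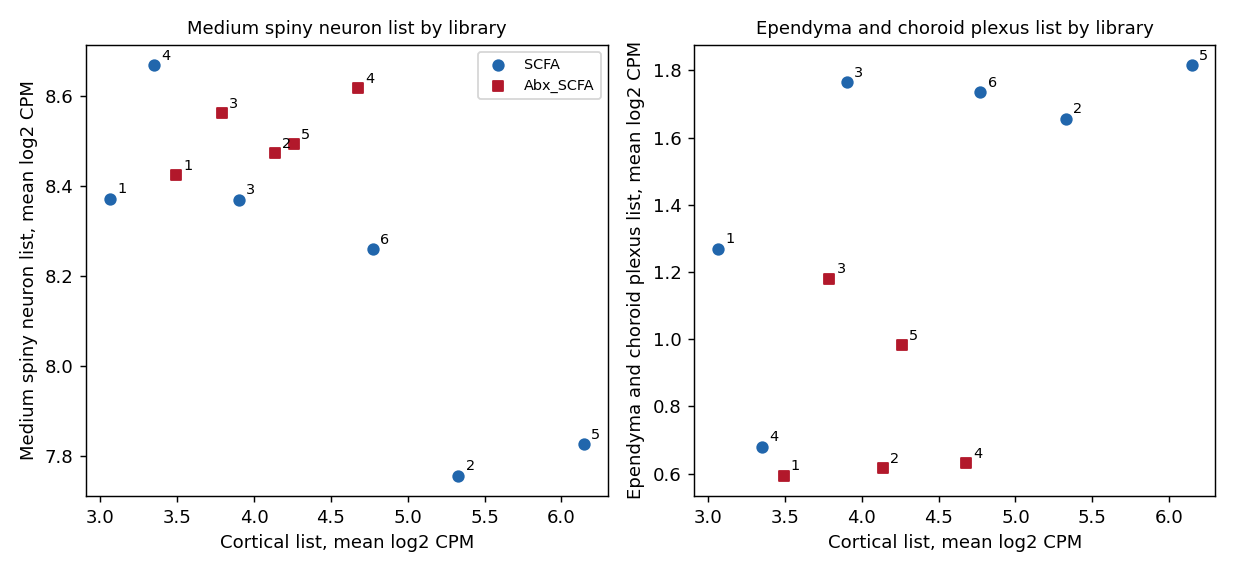
Mean log2 CPM of the medium spiny neuron list (left) and of the ependyma and choroid plexus list (right) against that of the cortical excitatory neuron list. Points are the 6 SCFA (circles) and 5 Abx_SCFA (squares) libraries, numbered by replicate. SCFA replicates 2 and 5 lie lowest on the left vertical axis at 7.76 and 7.83 and farthest right at 5.33 and 6.15, and on the right panel all SCFA libraries except replicate 4, at 0.68, lie above all Abx_SCFA libraries.

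No gene passed the test between Abx_SCFA and SCFA. With edgeR's quasi-likelihood test and Benjamini-Hochberg adjustment, 0 of 12846 genes (0%) had an adjusted p below 0.05, and the smallest adjusted p was 0.285, for Cend1. At an unadjusted p below 0.05 there were 871 genes, of which 349 were higher in Abx_SCFA (2.72% of those tested) and 522 lower (4.06%). The DESeq2 alternative called 4 genes (Cend1, Dgcr2, RragB and Zfp697), and limma-voom called 0 with or without quality weights. The libraries of both groups did not overlap in 34 genes that were higher in Abx_SCFA (0.265%) and in 38 that were lower (0.296%). The median log2 fold change over all genes was -0.01. The fold changes below are therefore values with their standard errors from edgeR, and none of them is a call. Counts within the gene lists below that use all libraries are to be read beside the 2.72% and 4.06% above. Where libraries were left out, the counts over all genes moved too. Without SCFA replicate 2 they were 196 higher and 284 lower of 12838, and without SCFA replicate 4 they were 688 and 847 of 12840. The other single libraries left out gave counts between these. Without SCFA replicates 2 and 5 the counts were 177 and 293 of 12801. Of all genes tested, 45.5% had a positive value.

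The genes with the smallest p were expressed at few counts and split the libraries sharply. Cend1, which encodes a neuronal membrane protein linked to cell cycle exit and differentiation, ran from 0.19 to 0.55 CPM in SCFA with a median of 0.44. It stood at 6.40, 6.08, 8.01, 8.56 and 0.31 CPM in Abx_SCFA replicates 1 to 5. The first 4 of these libraries lay above every SCFA library, while Abx_SCFA replicate 5 lay within the SCFA range. The log2 fold change was 3.76 ± 0.67 (SE). Without Abx_SCFA replicate 5 it was 4.07, with an edgeR adjusted p of 0.00233, and Cend1 was then the single gene called. RragB, a small GTPase that signals amino acid supply to the mTORC1 kinase, followed the same order of libraries. It ran from 0.19 to 1.18 CPM in SCFA with a median of 0.50, and stood at 3.95, 3.15, 4.0, 3.57 and 0.73 CPM in Abx_SCFA. Replicate 5 was again the Abx_SCFA library within the SCFA range, and the log2 fold change was 2.43 ± 0.52 (edgeR adjusted p = 0.453).

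Tsen34, a subunit of the tRNA splicing endonuclease, behaved alike. It ran from 0.21 to 1.67 CPM in SCFA, with replicate 4 the highest, and stood at 3.27, 2.93, 6.60, 3.62 and 0.42 CPM in Abx_SCFA. Its log2 fold change was 2.48 ± 0.64 (edgeR adjusted p = 0.732). Tsen34l1 had the same counts in all 11 libraries and shares those reads, so that both symbols are uncertain and count as 1 observation. Dgcr2, an adhesion receptor gene of the DiGeorge syndrome region, showed the opposite order. It ran from 1.47 to 2.42 CPM in SCFA with a median of 2.13 and stood at 0.92, 0.43, 0.38, 0.73 and 1.42 CPM in Abx_SCFA. The groups did not overlap, but replicate 5 lay next to the lowest SCFA library. The log2 fold change was -1.35 ± 0.29 (edgeR adjusted p = 0.453), and -1.70 without Abx_SCFA replicate 5.

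These genes split the libraries of the other groups too. Cend1 ran from 5.70 to 9.51 CPM in Abx and from 0.32 to 7.35 CPM in H2O, where replicate 4 held 7 counts and the other 4 libraries 88 to 146. H2O replicate 4 also had the lowest RragB of its group, at 0.27 CPM, the lowest Tsen34, at 0.18 CPM, and the highest Dgcr2, at 1.49 CPM. In these 4 genes, 1 library of H2O and 1 of Abx_SCFA thus lay within or next to the range of the 6 SCFA libraries, and what these 8 libraries share was not tested. The sources used here do not say whether they were prepared, sequenced or counted apart from the rest, or whether the labels of Abx_SCFA replicate 5 and H2O replicate 4 are right, so the values of these genes carry that doubt. Without Abx_SCFA replicate 5, RragB stood at 2.69 and Tsen34 at 2.76. Zfp697, the one gene among the 4 called by DESeq2 that did not enter the edgeR test, is named here after its values were seen and had 0 counts in 5 SCFA libraries and 1 in the other. It had 12, 3, 10, 6 and 1 counts in Abx_SCFA.

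**Figure D2:**
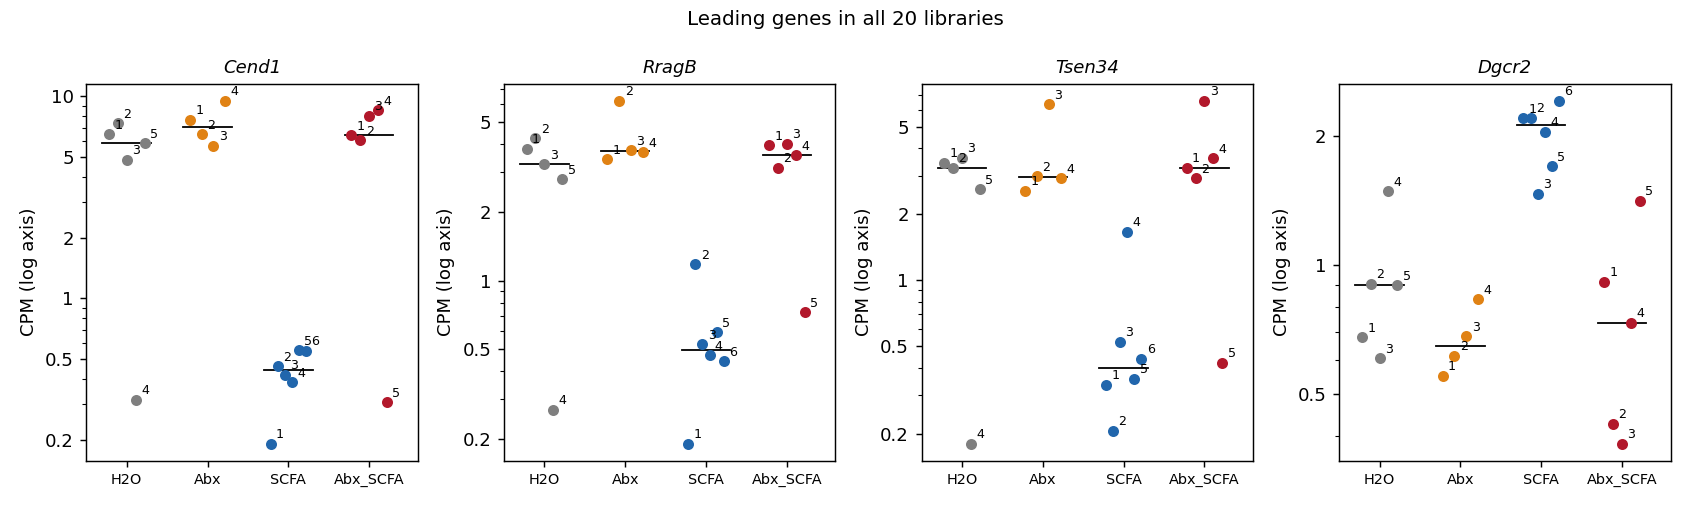
CPM on a log axis of Cend1, RragB, Tsen34 and Dgcr2 in all 20 libraries, by group, with points numbered by replicate and a line at the group median. Abx_SCFA replicate 5 and H2O replicate 4 lie with the SCFA libraries in Cend1, at 0.31 and 0.32 CPM, where the other Abx_SCFA and H2O libraries are above 4.

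The next genes by p were more abundant and differed by small amounts. Dap3, a protein of the small mitochondrial ribosome subunit, ran from 55.6 to 62.8 CPM in SCFA with a median of 60.1 and stood at 63.7, 66.3, 70.6, 67.4 and 67.6 CPM in Abx_SCFA. All Abx_SCFA libraries lay above all SCFA libraries, with a log2 fold change of 0.17 ± 0.05. Without SCFA replicates 2 and 5 it was 0.20. Rps9, a cytosolic ribosomal protein, was counted at only 0.71 to 1.15 CPM in SCFA and 1.45 to 2.02 CPM in Abx_SCFA, again without overlap (0.91 ± 0.20). Its counts equal those of another symbol in every library, so that the reads cannot be assigned to it. Kcns2, a modifier subunit of voltage-gated potassium channels, ran from 15.8 to 20.1 CPM in SCFA and from 19.1 to 22.3 CPM in Abx_SCFA, overlapping slightly (0.27 ± 0.07). Arid4b, a subunit of a Sin3 histone deacetylase complex, ran from 2.41 to 4.55 CPM in SCFA and from 3.14 to 6.99 CPM in Abx_SCFA (0.60 ± 0.18), with Abx_SCFA replicate 5 the lowest of its group.

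Among the genes with lower values in Abx_SCFA, Klhl24, a ubiquitin ligase adaptor, ran from 156 to 181 CPM in SCFA with a median of 160. It stood at 143, 150, 150, 143 and 138 CPM in Abx_SCFA, all below the SCFA libraries, and the log2 fold change was -0.17 ± 0.05. Sec24d, a coat protein of vesicles that leave the endoplasmic reticulum, ran from 13 to 15.1 CPM in SCFA and from 9.63 to 12.4 CPM in Abx_SCFA, also without overlap (-0.32 ± 0.09). Poli, a translesion DNA polymerase, ran from 9.88 to 12.9 CPM and from 8.52 to 9.70 CPM, without overlap (-0.30 ± 0.08). Values without SCFA replicates 2 and 5 were -0.15 for Klhl24, -0.35 for Sec24d and -0.33 for Poli. Ephrin receptor Epha3 (-0.65 ± 0.18), the adhesion molecule Nectin3 (-0.43 ± 0.11), the endothelin receptor Ednra (-0.43 ± 0.12) and the cell division gene Gtse1 (-0.58 ± 0.16) had negative values with overlapping groups. All 4 of the last were nearer to 0 without SCFA replicates 2 and 5, at -0.49, -0.30, -0.31 and -0.39. The edgeR adjusted p of Dap3, Kcns2, Arid4b, Klhl24, Sec24d, Poli, Epha3, Nectin3, Ednra and Gtse1 was 0.732.

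Medium spiny neuron genes had higher values in Abx_SCFA. Of the 27 general markers, 26 had positive fold changes, 8 had an unadjusted p below 0.05 on the higher side and 0 on the lower, and the median log2 fold change was 0.27. Over all genes tested, 45.5% were positive, 2.72% had such a p on the higher side and 4.06% on the lower. No general marker passed the adjusted test. In bulk tissue, fewer cells of a type and less RNA per cell cannot be told apart. Ppp1r1b, which encodes the dopamine-regulated phosphatase inhibitor DARPP-32, ran from 960 to 2054 CPM in SCFA with a median of 1622, and stood at 1698, 1796, 2129, 2115 and 1999 CPM in Abx_SCFA. SCFA replicates 2 and 5 were the lowest at 986 and 960 CPM, replicate 6 also lay below all Abx_SCFA libraries, replicates 1, 3 and 4 lay within their range, and the log2 fold change was 0.36 ± 0.17. Gnal, the G protein that couples D1 and adenosine receptors to adenylyl cyclase, stood at 0.38 ± 0.16. The phosphodiesterase Pde7b stood at 0.37 ± 0.14 and Tmem158 at 0.47 ± 0.17. Each of these 4 had an edgeR adjusted p of 0.732.

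Markers of both projection neuron classes had similar values. Of 9 tested D1 markers, 8 were positive, 5 had an unadjusted p below 0.05 on the higher side, and the median was 0.37. Of 9 tested D2 markers, 8 were positive, 4 had such a p on the higher side, and the median was 0.39. Of all genes tested, 2.72% had such a p on the higher side. Drd1, which encodes the D1 receptor, spanned 171 to 411 CPM in SCFA with a median of 306.4 and stood at 371, 362, 385, 437 and 342 CPM in Abx_SCFA. SCFA replicates 5 and 2 were the lowest, and SCFA replicate 4 lay above 4 of the 5 Abx_SCFA libraries. The log2 fold change was 0.40 ± 0.17. Tac1, the substance P precursor, stood at 0.38 ± 0.16, the dynorphin precursor Pdyn at 0.37 ± 0.18, the M4 muscarinic receptor Chrm4 at 0.23 ± 0.11 and the orphan transporter Slc35d3 at 0.52 ± 0.20.

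On the D2 side, Penk, the enkephalin precursor, ran from 575 to 1452 CPM in SCFA with a median of 941. It stood at 1058, 1195, 1311, 1467 and 1211 CPM in Abx_SCFA, so that the groups overlapped, and the log2 fold change was 0.42 ± 0.20. Drd2, the D2 receptor, ran from 112 to 246 CPM in SCFA with a median of 180 and stood at 208.6, 226, 227, 249 and 227 CPM in Abx_SCFA (0.41 ± 0.17). SCFA replicates 2 and 5 were the lowest and replicate 4 lay within the Abx_SCFA range. The receptor genes Adora2a (0.39 ± 0.20) and Gpr6 (0.46 ± 0.20) and the phosphatase Ptprm (0.23 ± 0.10) had similar values. The kappa opioid receptor Oprk1, which binds dynorphin, stood at 0.37 ± 0.16. The list of 16 tested genes of dopamine and opioid signalling shares Drd1, Drd2, Tac1, Pdyn and Penk with the marker lists. Of these 16, 10 were positive and 6 had an unadjusted p below 0.05 on the higher side, against 2.72% of all genes tested. That count was 0 without SCFA replicate 2, 0 without SCFA replicate 5, 1 without Abx_SCFA replicate 4 and 3 without Abx_SCFA replicate 2 or 3. Adjusted p in edgeR was 0.734 for Adora2a and 0.732 for the other genes of both classes named here.

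These differences were smaller without SCFA replicates 2 and 5. Both had been singled out by their low medium spiny neuron and high cortical values. Leaving them out therefore had to bring these values nearer to 0, and does not show that the differences depended on them alone. Without SCFA replicates 2 and 5, 24 of 27 general markers, 9 of 9 D1 markers and 9 of 9 D2 markers were still positive, but the medians were 0.09, 0.15 and 0.13, and 0 markers in each list had an unadjusted p below 0.05. Drd1 was then at 0.17, Penk at 0.17, Drd2 at 0.19, Ppp1r1b at 0.13 and Tmem158 at 0.28. Gnal and Pde7b stood at 0.16 and 0.18, and of the D1 genes Tac1 stood at 0.16, Pdyn at 0.13, Chrm4 at 0.14 and Slc35d3 at 0.24. Adora2a was at 0.13, Gpr6 at 0.21, Ptprm at 0.11 and Oprk1 at 0.18. Of the 16 dopamine and opioid genes 13 were then positive and 0 had such a p. SCFA replicate 4 pulled the other way: without it, 23 general markers had an unadjusted p below 0.05 on the higher side and the median was 0.40. Over all genes, 688 of 12840 then had such a p on the higher side. Without SCFA replicate 2 there were 2 such markers, without SCFA replicate 5 there were 3, without Abx_SCFA replicate 3 there were 4 and without Abx_SCFA replicate 4 there was 1. The 5 D1 and 4 D2 markers with such a p became 1 and 0 without SCFA replicate 2, 1 and 0 without SCFA replicate 5, 2 and 2 without Abx_SCFA replicate 3, 1 and 1 without Abx_SCFA replicate 4, and 8 and 7 without SCFA replicate 4. Without Abx_SCFA replicate 2 there were 2 such D2 markers. With the cortical list mean as a covariate in the model, the median of the general markers was 0.25, with 11 such markers.

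**Figure D3:**
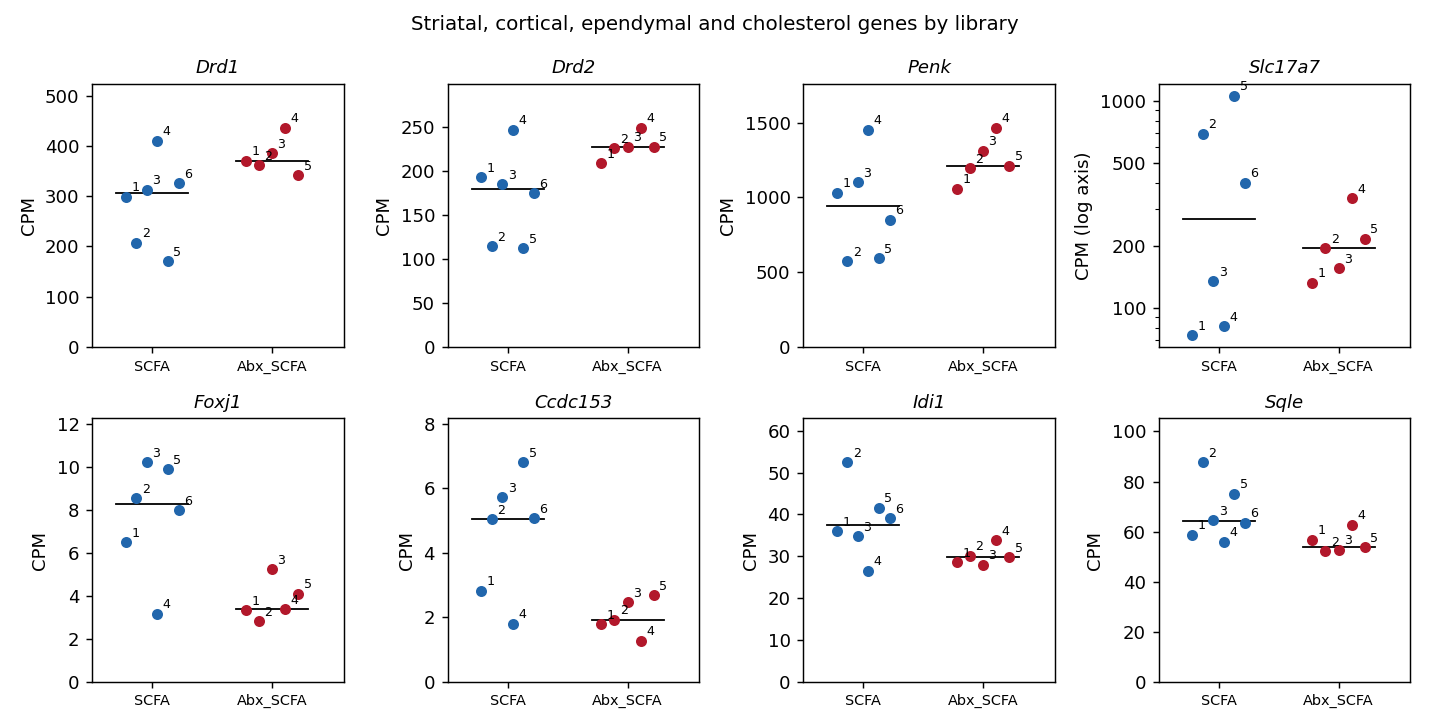
CPM by library of striatal genes (Drd1, Drd2, Penk), the cortical marker Slc17a7 on a log axis, ependymal genes (Foxj1, Ccdc153) and cholesterol genes (Idi1, Sqle). Points are libraries numbered by replicate, lines are group medians, and linear axes start at 0. SCFA replicates 2 and 5 are lowest in Drd1, at 208 and 171 CPM, and highest in Slc17a7, at 695 and 1059 CPM, and SCFA replicate 4 lies with the Abx_SCFA libraries in Foxj1, at 3.16 CPM.

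Cortical genes had values of the opposite sign. Of 15 tested cortical excitatory neuron markers, 14 had negative fold changes with a median of -0.84. An unadjusted p below 0.05 was found for 2 on the lower side and 0 on the higher, against 4.06% and 2.72% of all genes tested. Slc17a7, the main vesicular glutamate transporter of cortical neurons, ran from 74.0 to 1059 CPM in SCFA with a median of 268 and stood at 132, 194, 155, 339 and 216 CPM in Abx_SCFA. SCFA replicates 2, 5 and 6 lay above and SCFA replicates 1 and 4 below all Abx_SCFA libraries. The log2 fold change was -0.98 ± 0.96 (edgeR adjusted p = 0.844). Fezf2, a transcription factor of deep layer neurons, stood at -1.01 ± 0.40, with SCFA replicate 5 at 39.4 CPM against 6.13 to 17.3 CPM in the other SCFA libraries. Rorb, a layer 4 factor, did not overlap, with 12.9 to 21.4 CPM in SCFA and 11.9 to 12.6 CPM in Abx_SCFA (-0.34 ± 0.12). The edgeR adjusted p of Fezf2 and Rorb was 0.732. Without SCFA replicate 5 alone the list median was -0.28 with 1 marker at an unadjusted p below 0.05 on the lower side, while without SCFA replicate 1 or 4 there were 4 such markers, and in limma-voom without and with quality weights it was -0.38 and -0.15. With SCFA replicates 2 and 5 left out it turned to 0.22 with 12 of 15 markers positive. Slc17a7 was then at 0.26, Fezf2 at -0.12 and Rorb at -0.16.

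Several synaptic genes had large negative values with all libraries but not without SCFA replicates 2 and 5. Grm2, a presynaptic glutamate receptor, ran from 3.72 to 58.4 CPM in SCFA and from 6.20 to 10.4 CPM in Abx_SCFA, and stood at -1.20 ± 0.56, or -0.08 without SCFA replicates 2 and 5. The calcium-stimulated adenylyl cyclase Adcy8 (-0.56 ± 0.25) and the potassium channel Kcnb2 (-0.58 ± 0.26) were then at -0.04 and -0.02. The neurotrophin gene Bdnf ran from 1.29 to 41.1 CPM in SCFA and stood at 3.80, 6.77, 5.11, 11.5 and 5.39 CPM in Abx_SCFA. Its log2 fold change of -1.17 ± 0.88 turned to 0.38 without both libraries. The glutamate receptor genes Grid1 and Grm7 stood at 0.17 ± 0.06 and 0.24 ± 0.10, and at 0.18 and 0.20 without both libraries. The lists of glutamate receptors, GABA receptors, presynaptic genes and ion channels held 97 tested members. Over all genes tested, 2.72% had an unadjusted p below 0.05 on the higher side and 4.06% on the lower. Of the 97 members, 3 had such a p on the higher side and 2 on the lower. Without SCFA replicate 4 these counts were 15 and 4, where 688 and 847 of all 12840 genes tested had such a p. The other single libraries left out gave 1 to 5 on the higher side and 0 to 7 on the lower.

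Genes of the ependyma, the ciliated lining of the ventricles, and of the choroid plexus had lower values in Abx_SCFA. Of 12 tested members, 10 were negative with a median log2 fold change of -0.72. On the lower side 7 had an unadjusted p below 0.05 and on the higher 0, against 4.06% and 2.72% of all genes tested. The summed level of the 12 members ran from 49.4 to 65.9 CPM in SCFA and from 44.7 to 49.6 CPM in Abx_SCFA. Foxj1, the transcription factor that switches on motile cilia genes, ran from 3.16 to 10.2 CPM in SCFA with a median of 8.26 and stood at 3.32, 2.83, 5.24, 3.38 and 4.09 CPM in Abx_SCFA. All SCFA libraries but replicate 4 lay above all Abx_SCFA libraries, and the log2 fold change was -1.02 ± 0.36. Ccdc153, a cilia gene, showed the same order, with 4 SCFA libraries at 5.04 to 6.81 CPM, replicate 1 at 2.82 CPM and replicate 4 at 1.79 CPM, against 1.27 to 2.68 CPM in Abx_SCFA (-1.15 ± 0.41). Rsph1, a radial spoke protein of motile cilia, stood at -0.98 ± 0.36. Each of these 3 had an edgeR adjusted p of 0.732.

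Tmem212, another ependymal gene, was near the limit of detection, with 0.04 to 3.88 CPM in SCFA and 0 to 0.64 CPM in Abx_SCFA. Dynlrb2, a dynein light chain of cilia that is named here because its groups did not overlap, ran from 1.49 to 2.97 CPM in SCFA and from 0.72 to 1.49 CPM in Abx_SCFA (-0.90 ± 0.39). The defining choroid plexus gene Ttr had at most 5 counts in any of the 11 libraries and was not tested, and Kl, a further gene of the plexus, stood at 0.39 ± 0.23. Of the 7 members with an unadjusted p below 0.05, 5 were the ependymal and cilia genes above and 2 were choroid plexus genes, the folate receptor Folr1 (-1.67 ± 0.68) and the potassium channel Kcnj13 (-0.55 ± 0.26). The cilia genes Tekt1 (-0.13 ± 0.19) and Spag6 (0.07 ± 0.17) were near 0. Without SCFA replicates 2 and 5 the list median was -0.57 with 10 of 12 members negative and 1 with an unadjusted p below 0.05. Foxj1 was then at -0.87, Ccdc153 at -0.90 and Rsph1 at -0.64. Leaving out single libraries gave 4 to 7 members with such a p on the lower side. How much ventricular lining each tissue sample held was not tested.

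Genes of cholesterol synthesis and its regulation, which the SREBP transcription factors control, had mostly small negative values in Abx_SCFA minus SCFA, and none passed the adjusted test. Of 24 tested members, 21 were negative with a median log2 fold change of -0.16. An unadjusted p below 0.05 was found for 7 on the lower side and 0 on the higher, against 4.06% and 2.72% of all genes tested. Idi1, the isopentenyl diphosphate isomerase, ran from 26.6 to 52.5 CPM in SCFA with a median of 37.6 and stood at 28.6, 30.2, 28, 33.9 and 29.8 CPM in Abx_SCFA. SCFA replicate 4 was the lowest library of all and the other 5 SCFA libraries lay above all Abx_SCFA libraries, with a log2 fold change of -0.35 ± 0.14. Sqle, squalene epoxidase, stood at -0.28 ± 0.10. Both had an edgeR adjusted p of 0.732. Leaving out SCFA replicates 2 and 5 gave a list median of -0.03 with 18 of 24 negative and 0 at an unadjusted p below 0.05, and Idi1 and Sqle stood at -0.18 and -0.12. Leaving out SCFA replicate 2 alone left 1 such gene, Abx_SCFA replicate 3 left 2 and SCFA replicate 5 left 3.

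The promoters of 3 of the 7 cholesterol genes with an unadjusted p below 0.05 were in the RefSeq promoter table of the GRCr8 assembly and are shown because the members had the same sign. Each window is the 250 bases before the annotated start, read 5′ to 3′ on the gene's own strand, and capitals mark CCAAT or its reverse complement ATTGG, the core of the site bound by the factor NF-Y. They lie on the minus strand at chr17:66547525-66547774 for Idi1, chr20:12118231-12118480 for the lanosterol synthase gene Lss and chr4:8057770-8058019 for Insig1, which encodes a sterol-sensing retention protein of the SREBP pathway.
Idi1: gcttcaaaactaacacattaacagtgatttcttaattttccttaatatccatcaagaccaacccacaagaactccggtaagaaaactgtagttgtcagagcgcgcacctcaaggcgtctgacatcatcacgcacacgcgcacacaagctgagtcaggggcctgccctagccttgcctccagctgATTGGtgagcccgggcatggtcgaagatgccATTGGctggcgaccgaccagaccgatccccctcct
Lss: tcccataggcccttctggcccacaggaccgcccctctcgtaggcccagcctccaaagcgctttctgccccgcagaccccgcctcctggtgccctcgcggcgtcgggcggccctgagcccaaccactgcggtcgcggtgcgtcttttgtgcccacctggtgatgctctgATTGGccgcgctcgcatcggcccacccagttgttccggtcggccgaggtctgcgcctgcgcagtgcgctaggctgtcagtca
Insig1: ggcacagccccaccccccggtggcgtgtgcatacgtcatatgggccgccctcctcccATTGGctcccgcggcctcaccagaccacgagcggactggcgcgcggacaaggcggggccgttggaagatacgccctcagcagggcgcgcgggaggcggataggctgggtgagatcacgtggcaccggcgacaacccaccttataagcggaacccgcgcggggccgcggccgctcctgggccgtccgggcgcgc
Idi1 held 2 matches and Lss and Insig1 held 1 each. Of the 24 tested list members 17 had a window, and 15 of these held CCAAT on either strand, against 34.8% of the 9875 windows of all tested genes. The sterol element TCACNCCAC was in 0 of 17 windows, against 1.04%. CCAAT was singled out after the counts of 10 strings had been seen, and a match is a description of the letters only.

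Few tested genes of fatty acid sensing and handling had an unadjusted p below 0.05, which does not show that their levels were equal. Of 5 tested receptor and transporter genes, 0 had an unadjusted p below 0.05 in either direction. Slc16a1, the monocarboxylate transporter MCT1 of the blood vessel wall and glia, ran from 55.4 to 84.7 CPM in SCFA with a median of 73.5 and stood at 82.2, 63.4, 69.6, 84.3 and 76.3 CPM in Abx_SCFA. The groups overlapped widely, the log2 fold change was 0.04 ± 0.10 and its 95% interval ran from -0.18 to 0.26. MCT4 (Slc16a3) stood at 0.34 ± 0.19 and the neuronal transporter MCT2 (Slc16a7) at -0.38 ± 0.19, or -0.09 without SCFA replicates 2 and 5. The fatty acid receptor gene Ffar3 had at most 1 count in a SCFA library and 3 in an Abx_SCFA library and was not tested. Ffar2, another such receptor, had 2 to 9 counts in SCFA and 5 to 14 in Abx_SCFA. Of 21 metabolic genes of acetate, propionate and butyrate, 1 had an unadjusted p below 0.05, the thiolase Acat2 (-0.36 ± 0.17, and -0.14 without both libraries). Acss2, which makes acetyl-CoA from acetate, stood at -0.14 ± 0.09.

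Among chromatin genes, no histone deacetylase or sirtuin gene but some other genes had an unadjusted p below 0.05. Of 15 tested histone deacetylase and sirtuin genes, 9 were positive with a median of 0.04, and 0 had an unadjusted p below 0.05. Hdac2 ran from 108 to 132 CPM in SCFA with a median of 114 and stood at 109, 126, 116, 122 and 109 CPM in Abx_SCFA, with a log2 fold change of 0.00 ± 0.06 and a 95% interval from -0.12 to 0.13. For Hdac3 the value was 0.04 ± 0.05 and the interval -0.07 to 0.15. Hdac1 stood at -0.17 ± 0.09 with an interval from -0.35 to 0.01. Of 13 acetyltransferase and bromodomain genes, 3 had an unadjusted p below 0.05 on the lower side, where 4.06% of all genes did. These 3 were the coactivator Ncoa2 (-0.16 ± 0.06), the acetyl-lysine reader Brd3 (-0.13 ± 0.06) and the acetyltransferase Crebbp (-0.18 ± 0.08). Their values without SCFA replicates 2 and 5 were -0.15, -0.09 and -0.24. Without Abx_SCFA replicate 5, 0 of the 13 had such a p, and without Abx_SCFA replicate 4 it was 1. Of 18 tested histone and DNA methylation genes, 9 were positive and 9 negative, with a median of -0.01. On the lower side 1 had an unadjusted p below 0.05, and on the higher side 0. In that list the histone methyltransferase Ezh2 stood at -0.31 ± 0.12.

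Activity-regulated genes had mostly negative values with all libraries. Of 40 tested members, 29 were negative and 11 positive (27.5%, against 45.5% of all genes tested), with 1 at an unadjusted p below 0.05 on each side and a median of -0.11. Without SCFA replicate 3 there were 5 on the lower side, and without replicate 1 or 4 there were 3. Vgf, a secreted neuropeptide precursor, ran from 94.1 to 132 CPM in SCFA with a median of 109 and stood at 123, 122, 162, 138 and 133 CPM in Abx_SCFA. All SCFA libraries but replicate 5 lay below all Abx_SCFA libraries, and the log2 fold change was 0.31 ± 0.11, or 0.33 without SCFA replicates 2 and 5. Maff, a small leucine zipper factor, stood at -0.48 ± 0.19 and -0.42. Fos ran from 18.9 to 54.6 CPM in SCFA with a median of 34 and from 27.8 to 32.7 CPM in Abx_SCFA, at -0.24 ± 0.23. Egr1 stood at -0.11 ± 0.18 and Arc at -0.15 ± 0.24. Without both libraries the sign of the list turned, with a median of 0.09 and 30 of 40 positive, and Fos, Egr1 and Arc were at 0.08, 0.15 and 0.09.

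Glial, vascular and immune genes gave few differences. All 24 tested myelin genes were negative with a median of -0.18, but 0 had an unadjusted p below 0.05. Mbp, myelin basic protein, ran from 2906 to 11369 CPM in SCFA and from 5331 to 9666 CPM in Abx_SCFA, at -0.09 ± 0.26, and without SCFA replicate 5 the number of myelin genes at an unadjusted p below 0.05 was 6. Among 17 astrocyte genes the one with such a p was the amino acid transporter Slc7a10 (0.19 ± 0.08), and Gfap, the astrocyte filament gene, stood at -0.27 ± 0.15. Of 24 endothelial and mural genes 21 were positive with a median of 0.08, with the tight junction gene Cldn5 at 0.20 ± 0.10, and 0 had such a p. The 22 microglial, 27 interferon and MHC and 18 inflammatory genes had medians of 0.03, -0.01 and 0.03, with 0 at an unadjusted p below 0.05 in each. Aif1, a microglial gene, ran from 15.9 to 20 CPM in SCFA and from 15.7 to 21.3 CPM in Abx_SCFA.

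Of the matrix genes, 3 of 21 had an unadjusted p below 0.05 on the lower side, where 4.06% of all genes did: the tenascins Tnr (-0.31 ± 0.12) and Tnc (-0.86 ± 0.39) and the perineuronal net proteoglycan Acan (-0.42 ± 0.18). Tnc was highest in SCFA replicate 2, at 137 CPM against 25.7 to 73.0 CPM in the other SCFA libraries and 24.6 to 48.1 CPM in Abx_SCFA. The values without SCFA replicates 2 and 5 were -0.17 for Tnr, -0.35 for Tnc and -0.31 for Acan, and 1 member then had such a p. The count was also 1 without SCFA replicate 2, SCFA replicate 5 or Abx_SCFA replicate 2, 4 or 5 alone. Of 51 nuclear genes of oxidative phosphorylation 43 were positive, against 45.5% of all genes tested, but the median was only 0.04. On the higher side 2 had an unadjusted p below 0.05, where 2.72% of all genes did. They were the complex II subunit Sdhd (0.17 ± 0.07) and the complex IV subunit Cox6a1 (0.15 ± 0.07). Without SCFA replicate 4, or without Abx_SCFA replicate 4, 30 of the 51 were positive, and without SCFA replicate 5 or Abx_SCFA replicate 4 there were 0 genes with such a p.

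**Figure D4:**
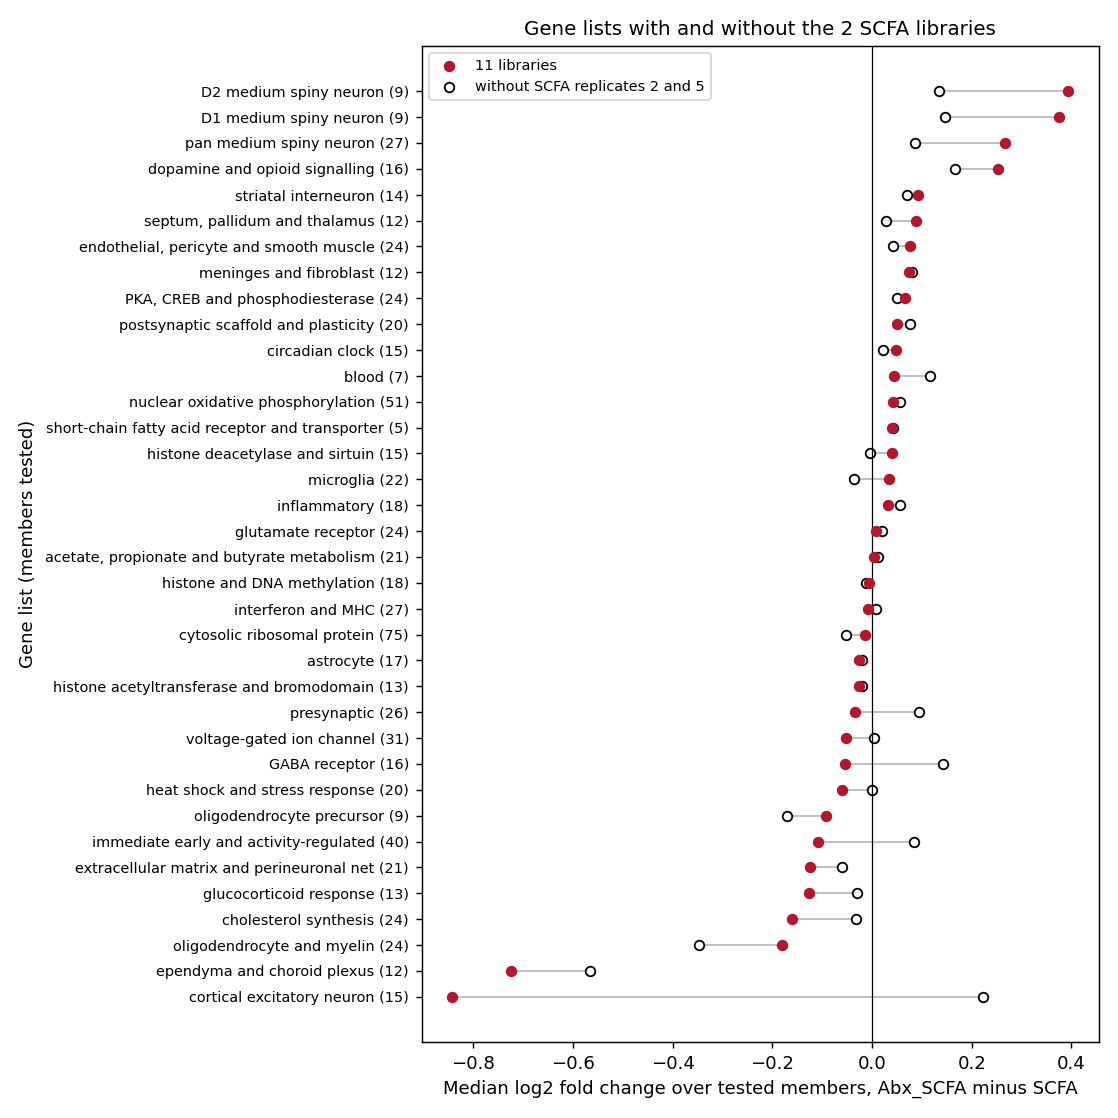
Median log2 fold change of each gene list, Abx_SCFA minus SCFA, over its tested members (their number in brackets), with all 11 libraries (filled) and without SCFA replicates 2 and 5 (open). The cortical list moves from -0.84 to 0.22 and the D1 and D2 lists from 0.37 and 0.39 to 0.15 and 0.13, and the ependymal list from -0.72 to -0.57.

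The antibiotic difference among rats without fatty acids was set beside these values. In the interaction test of edgeR, which asks whether Abx_SCFA minus SCFA differs from Abx minus H2O, 0 of 12846 genes (0%) had an adjusted p below 0.05. The smallest adjusted p was 0.622, 1008 genes had an unadjusted p below 0.05, and DESeq2 and limma-voom also called 0. The 2 differences share no library. Every H2O and Abx rat had a lower rat number than every SCFA and Abx_SCFA rat. In the interaction, anything that followed the rat numbers therefore cannot be told apart from the fatty acids. The cortical list had a median of 1.67 in Abx minus H2O and -0.84 in Abx_SCFA minus SCFA. Of its 15 members 10 had an unadjusted interaction p below 0.05, against 1008 of 12846 genes tested. Slc17a7 stood at 2.28 without fatty acids and -0.98 with them, an interaction of -3.26 ± 1.44 (edgeR adjusted p = 0.622). For the ependymal list the medians were 0.06 and -0.72, and for cholesterol synthesis 0.09 and -0.16. Of their members 3 of 12 and 4 of 24 had an unadjusted interaction p below 0.05. The interferon and MHC list had medians of -0.48 and -0.01, with 7 of 27 members at such a p. In that list H2O replicate 1 had the highest mean of its group, at 4.11 mean log2 CPM. Medium spiny neuron medians were -0.03 in rats without fatty acids and 0.27 in rats with them, and Drd1 had an interaction of 0.52 ± 0.26 (edgeR adjusted p = 0.626). Cend1 stood at 0.57 without fatty acids, where H2O replicate 4 held 7 counts and the other H2O libraries 88 to 146. Its interaction was 3.19 ± 0.91, and it carries the doubt about the labels given above. Without SCFA replicates 2 and 5, an alternative added after seeing the data, 498 of 12801 genes had an unadjusted interaction p below 0.05 and 0 passed the adjustment. The cortical list then had 2 of 15 members with such a p and the interferon and MHC list 6 of 27. Slc17a7 had an interaction of -2.03 ± 1.45, Drd1 of 0.28 ± 0.17 and Cend1 of 3.34 ± 1.09 (edgeR adjusted p = 0.959 for each).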

How the data were processed

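The authors deposited 1 table of read counts per gene symbol for 20 libraries (17296 symbols). The submitters' processing notes name the build Rnor_6.0, the aligner STAR 2.4.0, FastQC 0.11.6 and limma, and per the labels' protocols cDNA of polyA RNA was made with a SMARTer kit. How reads were counted, with which annotation and strand setting, is not given in the sources used here, so that overlapping and antisense genes cannot be told apart. Counts were fitted with edgeR 4.0.16 in R 4.3.3 (TMM scaling, filterByExpr with 10 counts in a library and 15 in total, robust quasi-likelihood F test, 1 model of 4 groups, 16 residual degrees of freedom), with Benjamini-Hochberg adjustment over 12846 genes. Standard errors come from the F statistic. CPM are scaled to TMM-adjusted totals, and list means use log2 CPM with a prior count of 2. Alternatives used DESeq2 1.42.0, limma-voom (limma 3.58.1), other scalings and filters, the 11 libraries alone, a cortical covariate, and libraries left out. A count of 0 allows up to 3 counts, or 0.115 to 0.165 CPM in the 11 libraries, for counting error only, since the reads carry no molecular identifiers. The chi-square per gene between pairs of the 11 libraries was at least 6.77, so that each counted as 1 replicate.

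The members and the 36 gene lists were chosen with earlier results of these data known. Named genes follow 1 rule: the 10 genes with the smallest p in each direction (at least 1 CPM, with a named symbol), up to 4 members of each list in order of p, and a set always given. Which of them are printed, and Lss, Insig1, Kl, Folr1, Kcnj13, Tekt1, Spag6, Ffar2, Dynlrb2, Ttr and Zfp697, were chosen after their values were seen. Some genes that the rule names are not reported here. Scripts were tested on simulated data. In RefSeq's GRCr8 table, 16952 symbols are current or synonyms. Promoter windows come from RefSeq and use that build, and the authors' table gives no coordinates.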

Additional observations from a re-analysis of the deposited data

Results flagged for a closer look

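Of 254 series of values (91 genes and 36 list means in each group), 14 had an end library farther from its nearest neighbour, relative to the range of the group, than the 95% critical value of Dixon's test allows. Chance flags about 1 in 20 where series are independent. These series come from the same libraries and some share reads, so whether their number exceeds chance was not tested. Of the 14 flags, 5 were in SCFA replicate 5 and 3 in SCFA replicate 2. In SCFA, replicate 5 was highest in Fezf2 (39.4 CPM), Cux2 (89.2 CPM), Neurod1 (8.31 CPM), Hdac4 (63.9 CPM) and Grm2 (58.4 CPM). SCFA replicate 2 was highest in Klhl24 (181 CPM) and in the heat shock list (6.30 mean log2 CPM) and lowest in the list of septum, pallidum and thalamus (2.66 mean log2 CPM). SCFA replicate 4 was highest in Tsen34 and in Tsen34l1 (1.67 CPM each), which share reads. In Abx_SCFA, replicate 5 was lowest in RragB (0.73 CPM), replicate 1 highest in Cux2 (34.8 CPM), and replicate 4 highest in Sdhd (129 CPM) and in the activity-regulated list (4.99 mean log2 CPM). No gene's antibiotic difference was shown by the interaction test to depend on fatty acids.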

How the results depend on the processing

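The absence of calls at an adjusted p below 0.05 held for edgeR and limma-voom under the scalings, filters and sample sets tried with all libraries, for SCFA replicates 2 and 5 left out, and for the cortical covariate. DESeq2 called 4 genes. Leaving out single libraries gave 0 to 1 calls, 480 to 1535 genes at an unadjusted p below 0.05 against 871, and 89 to 303 genes without overlap against 72. The extremes were SCFA replicate 2 (480) and SCFA replicate 4 (1535 and 303), and without Abx_SCFA replicate 3 there were 561 genes at an unadjusted p below 0.05. With SCFA replicates 2 and 5 left out there were 470 and 186. Fewer libraries overlap less often by construction. The interaction gave 0 calls in every alternative run. Of 91 named genes, those that changed sign were as follows. With quality weights, Bdnf was 0.0273, Egr1 0.0885, Hdac2 -0.0074 and Slc16a1 -0.0419. On the 11 samples alone Hdac2 was -0.00029. Without SCFA replicates 2 and 5, Slc17a7 was 0.26, Cux2 0.00095, Neurod1 0.37, Bdnf 0.38, Fos 0.0814, Egr1 0.15, Arc 0.0889 and Slc16a1 -0.023. With the cortical covariate, Slc17a7 was 0.22, Neurod1 0.0383, Bdnf 0.28, Egr1 0.0088, Arc 0.0144 and Hdac2 -0.0052. Slc17a7 and Neurod1 are members of the list behind that covariate, so the covariate had to take up part of their difference. Leaving out single libraries gave -0.26 to 0.0694 for Mbp, -0.0306 to 0.0411 for Hdac2, -0.21 to 0.0672 for Egr1, -0.0288 to 0.093 for Slc16a1 and -0.0054 to 0.11 for Aif1. The cause was not tested. No paired analysis was possible because the groups compared share no rat and the labels name no pairs.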
